A study of Mus musculus with 5 samples.

Results

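Epithelial barrier transcription factors are nuclear proteins that control genes as a lining epithelium seals itself. The 9 described here were chosen as named members of 4 gene families, with earlier results of these data known, and all 9 were found among the 24970 genes counted. They were the grainyhead-like genes Grhl1, Grhl2 and Grhl3, the epithelial Ets genes Elf3 and Ehf, the Krüppel-like genes Klf4 and Klf5 and the zinc finger genes Ovol1 and Ovol2. All 9 passed the filter on low counts and were tested. In the bladder the urothelium, a layered epithelium of basal, intermediate and umbrella cells, holds urine back. Grhl3 is known in mice for its part in the maturation of umbrella cells, and Klf5 is known to be needed for normal urothelial maturation in mice. Grhl2 and the Ovol factors are known to keep epithelial genes on and to restrain mesenchymal regulators such as Zeb1, and Klf4 is required for the skin barrier of newborn mice. Notch receptors, which gamma-secretase cuts to release their signalling part, take part in epithelial differentiation in many tissues.

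RNA was sequenced from bladder urothelium dissected off the muscle wall of 5 mice, all aged 10 weeks, with 1 library per mouse. The Ncstn KO group (KO 1, KO 2 and KO 3) carried the alleles Krt5CreERT2 and Ncstnflox/flox, so that a Krt5-driven inducible Cre could delete the gamma-secretase subunit gene Ncstn in basal cells and what arises from them. The WT group (WT 1 and WT 2) was labelled C57Bl/6 and wild type. The WT mice are not labelled as carrying the Cre, the background strain of the Ncstn KO mice is not labelled, and the timing of Cre induction is not stated, so these differences and the loss of Ncstn cannot be told apart. The comparison asks which barrier factors differ in abundance between urothelium labelled Ncstn KO and WT urothelium.

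Gene counts totalled 12608836 to 27188499 in the Ncstn KO libraries and 13936790 to 19384171 in the WT libraries. Values are given as CPM, counts scaled to a common library size, after TMM scaling, a correction for differences in library make-up. The targeted gene Ncstn was at 114, 117 and 123 CPM in Ncstn KO libraries and at 144 and 130 CPM in WT libraries (log2 fold change -0.21, not past the test, edgeR adjusted p = 0.133). Reads from outside the floxed part and from cells without the Cre are included in this level, so it does not check the deletion. The 6 umbrella cell markers (uroplakins and Krt20) summed to 11824 to 13071 CPM in Ncstn KO and 7620 to 8334 CPM in WT libraries, so the tissue carried its defining markers in all 5. The 10 fibroblast markers summed to 9087 to 10747 CPM in Ncstn KO and 15224 to 17341 CPM in WT libraries, and 10 pan-epithelial genes summed to 8949 to 9883 CPM in Ncstn KO and 7080 to 8346 CPM in WT libraries. Precursor ribosomal RNA (Rn45s) took 0.608% to 1.53% of gene counts in Ncstn KO libraries, 7.84% in WT 1 and 3.23% in WT 2. Because these are bulk samples, more cells of a type and more RNA per cell cannot be told apart.

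Of the 9 barrier factors, 4 rose in Ncstn KO urothelium, none fell and 5 did not pass the test. Those that rose were Grhl3, Klf4, Elf3 and Grhl1, by 1.46-fold to 2.13-fold. In the same test 9.64% of the 14779 genes tested were higher and 10.0% were lower in Ncstn KO mice. P-values come from the quasi-likelihood test of edgeR, adjusted over all tested genes by the Benjamini-Hochberg method, and a call needs an adjusted p under 0.05. At an unadjusted p under 0.05, 5 members were higher and 0 lower, beside 17.5% of all tested genes higher and 17.4% lower, and DESeq2 and limma-voom each called 4 higher and 0 lower. The median log2 fold change of the 9 was 0.33, against 0.0071 over all genes tested. In 7 of the 9, every Ncstn KO library lay above both WT libraries, a separation in this direction that 25.9% of all tested genes also showed.

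Promoter sequence is shown for the 4 genes that rose, chosen because they passed the test. Their RefSeq promoter windows (GRCm38.p6, 250 bases before to 50 after the gene's start, written along the gene's own strand) follow, with capitals at TGGGAA, the core bound by the Notch effector RBPJ, and at CACCC, a core bound by Krüppel-like factors, on either strand. The windows are chr4:135573583-135573882 on the minus strand for Grhl3, chr4:55532426-55532725 on the minus strand for Klf4, chr1:135258423-135258722 on the minus strand for Elf3 and chr12:24572037-24572336 on the plus strand for Grhl1.
Grhl3: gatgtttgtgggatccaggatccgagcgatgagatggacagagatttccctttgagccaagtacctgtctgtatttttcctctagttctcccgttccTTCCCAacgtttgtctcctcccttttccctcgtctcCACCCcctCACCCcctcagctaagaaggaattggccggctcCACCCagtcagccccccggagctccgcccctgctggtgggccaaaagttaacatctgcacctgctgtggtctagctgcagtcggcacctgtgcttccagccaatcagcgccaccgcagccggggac
Klf4: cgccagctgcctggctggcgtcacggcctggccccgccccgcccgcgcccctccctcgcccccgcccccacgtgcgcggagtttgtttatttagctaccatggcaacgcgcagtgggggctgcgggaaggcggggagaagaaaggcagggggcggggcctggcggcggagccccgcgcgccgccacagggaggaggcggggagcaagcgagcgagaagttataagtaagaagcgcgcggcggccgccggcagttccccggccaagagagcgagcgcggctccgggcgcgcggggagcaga
Elf3: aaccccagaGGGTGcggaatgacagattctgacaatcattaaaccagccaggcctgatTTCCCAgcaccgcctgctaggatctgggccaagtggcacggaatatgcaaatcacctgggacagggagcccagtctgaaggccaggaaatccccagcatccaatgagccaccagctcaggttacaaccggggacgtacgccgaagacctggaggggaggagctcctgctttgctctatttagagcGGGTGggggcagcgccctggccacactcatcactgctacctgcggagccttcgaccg
Grhl1: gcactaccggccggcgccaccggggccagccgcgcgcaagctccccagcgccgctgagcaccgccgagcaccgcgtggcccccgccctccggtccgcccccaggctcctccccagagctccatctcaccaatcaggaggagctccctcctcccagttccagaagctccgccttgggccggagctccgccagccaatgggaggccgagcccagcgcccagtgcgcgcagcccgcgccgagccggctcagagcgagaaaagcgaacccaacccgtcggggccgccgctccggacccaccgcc

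The Grhl3 window held 1 match to TGGGAA, 153 bases before the start, and 3 to CACCC. The Elf3 window held 1 match to TGGGAA, 192 bases before the start, and 2 to CACCC. The Klf4 window and the Grhl1 window shown held neither. A second Grhl1 start in the table, at chr12:24580469-24580768, held 2 matches to CACCC and none to TGGGAA. Ovol2, which did not pass the test, was the only other member with a window. That window, not shown, held 1 match to TGGGAA, 242 bases before the start, and 2 to CACCC, so these matches were not particular to genes that rose. Of 32851 mouse promoter windows of this length, 25.56% held TGGGAA and 57.52% held CACCC. The Ets core GGAAG, present in 71.41% of all windows, had 2 matches in the Grhl3 window, of which 1 overlaps the TGGGAA match. It had 1 match in the Klf4 window and 0 in the Elf3 window and the Grhl1 window shown. The second Grhl1 window and the window of Ovol2, which did not pass, each held 2. The grainyhead site AACCGGTT (0.15% of all windows) and the Ovol site CCGTTA (2.76%) were searched on both strands. Neither matched any window of the 4 genes that rose. A match of letters is a description of the sequence and not a measured binding site.

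**Figure D1:**
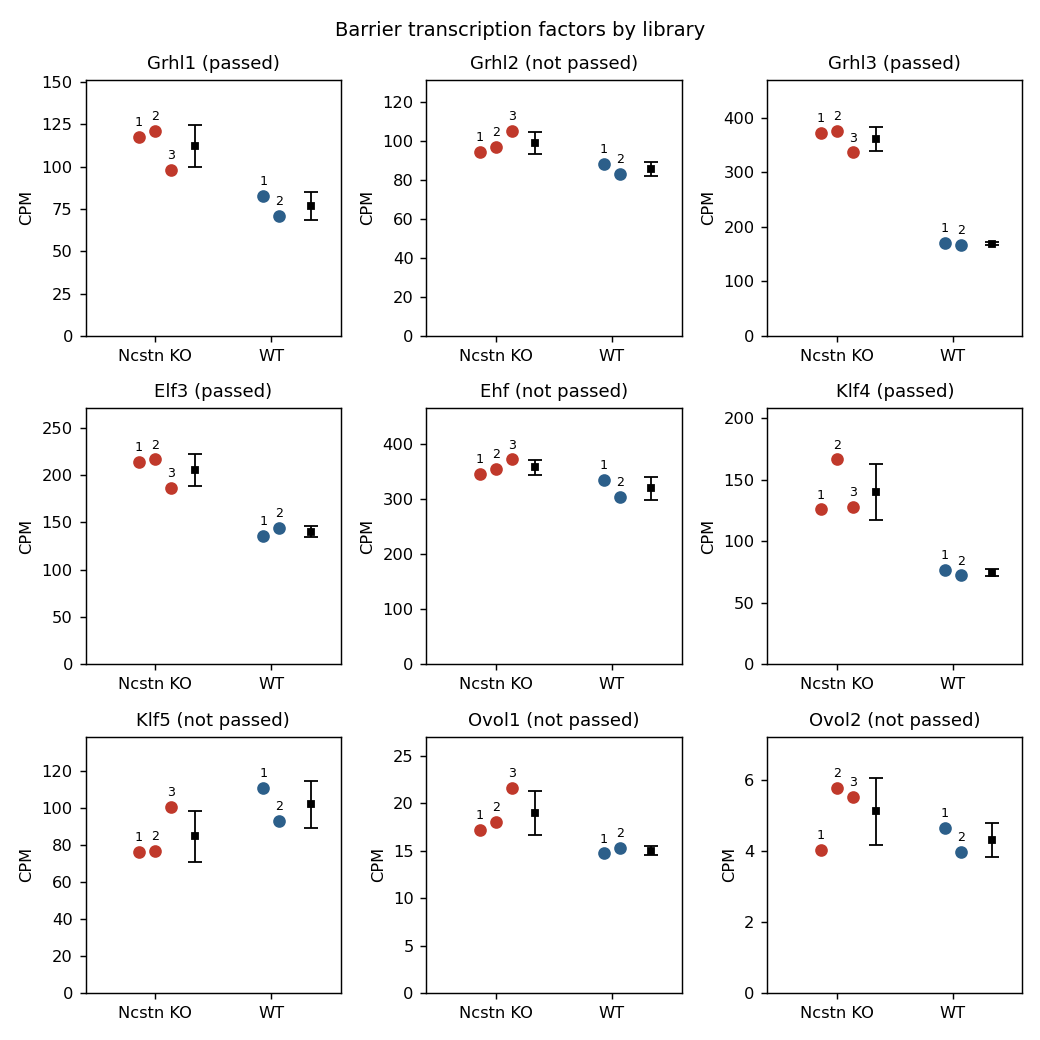
Level of each of the 9 barrier factors in CPM by library, with Ncstn KO at the left and WT at the right of each panel. Points are libraries, numbered by replicate, and squares with bars are mean and SD. Grhl3 lies at 336 to 376 CPM in Ncstn KO and 168 to 171 CPM in WT libraries, whereas the Klf5 groups overlap.

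Grhl3 encodes the grainyhead-like factor of terminal barrier formation. It lies on chromosome 4 from 135541888 to 135573630 (GRCm38, minus strand) and was measured at 372, 376 and 336 CPM in Ncstn KO libraries and at 171 and 168 CPM in WT libraries. The groups did not overlap, and the gap between them was wider than the range within either. The means were 361 ± 21.9 CPM in Ncstn KO mice (SD, n = 3) and 169 ± 2.47 CPM in WT mice (SD, n = 2). Grhl3 rose 2.13-fold (log2 fold change 1.09 ± 0.10 SE, 95% interval 0.87 to 1.32, edgeR adjusted p = 0.000125). Of all genes tested, 81 had a smaller p and 2.36% had a higher log2 fold change. The call held in all 15 alternative settings, with log2 fold changes of 0.77 to 1.14.

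Grhl1 encodes a relative known in mice for its control of the desmosomal cadherin desmoglein 1 in skin. On chromosome 12 from 24572283 to 24617391, it was at 118, 121 and 98.1 CPM in Ncstn KO libraries and at 82.7 and 71.0 CPM in WT libraries. KO 3 was the lowest of the Ncstn KO libraries and still above both WT libraries. Grhl1 rose 1.46-fold (log2 fold change 0.55 ± 0.12 SE, edgeR adjusted p = 0.0112). This call was lost without WT 2 (log2 fold change 0.43, edgeR adjusted p = 0.0923).

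Grhl2, the grainyhead gene that maintains E-cadherin and claudin expression in several mouse epithelia, lies on chromosome 15 from 37233036 to 37363569. It was at 94.3, 96.8 and 105 CPM in Ncstn KO libraries and at 88.2 and 83.0 CPM in WT libraries. The groups did not overlap, but the gap between the nearest libraries was small beside that of Grhl3. Grhl2 did not pass the test (log2 fold change 0.20 ± 0.09 SE, 95% interval -0.0051 to 0.41, edgeR adjusted p = 0.153).

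Within the grainyhead family the make-up shifted towards Grhl3 in every Ncstn KO library. Per kb of annotated exon, Grhl3 made up 80.6%, 80.3% and 80.1% of the summed Grhl level in KO 1, KO 2 and KO 3 and 70.9% and 72.8% in WT 1 and WT 2. Grhl2 made up 6.61%, 6.70% and 8.11% in Ncstn KO libraries and 11.8% and 11.7% in WT libraries. Counted within each library, so that scaling plays no part, there were 3.95, 3.88 and 3.20 Grhl3 reads for each Grhl2 read in Ncstn KO libraries and 1.94 and 2.02 in WT libraries. This log2 ratio was higher by 0.89 in Ncstn KO mice, and that of Grhl3 to Grhl1 was higher by 0.55. Both gave p = 0.1 in an exact two-sided permutation test over the 5 libraries (adjusted p = 0.167 over 5 ratios). With 3 against 2 mice, 0.1 is the smallest p this test can give, so it cannot pass the threshold.

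Elf3 and Ehf are Ets factors restricted largely to epithelia, and Elf3 is known from human urothelial cells as a factor of differentiation downstream of PPARG. Elf3 lies on chromosome 1 from 135253575 to 135258568 and was at 214, 216 and 186 CPM in Ncstn KO libraries and at 136 and 144 CPM in WT libraries. All Ncstn KO libraries were above both WT libraries. Elf3 rose 1.47-fold (log2 fold change 0.55 ± 0.10 SE, edgeR adjusted p = 0.00530), and the call was lost without WT 1 (log2 fold change 0.51, edgeR adjusted p = 0.0681). An antisense gene on the opposite strand, Gm26642, overlaps 7.31% of its exon bases, and whether the counting used strand is not stated.

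Ehf, on chromosome 2 from 103263433 to 103303278, was at 346, 356 and 373 CPM in Ncstn KO libraries and at 335 and 305 CPM in WT libraries. The lowest Ncstn KO library lay just above the highest WT library. Ehf did not pass the test (log2 fold change 0.16 ± 0.10 SE, 95% interval -0.06 to 0.38, edgeR adjusted p = 0.272). There were 0.618, 0.608 and 0.500 Elf3 reads per Ehf read in Ncstn KO libraries and 0.406 and 0.473 in WT libraries. The log2 ratio was higher by 0.39 in Ncstn KO mice (exact permutation p = 0.2, adjusted p = 0.25 over 5 ratios).

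Klf4, on chromosome 4 from 55527143 to 55532466, was at 126, 167 and 128 CPM in Ncstn KO libraries and at 76.7 and 72.4 CPM in WT libraries. KO 2 stood above the other Ncstn KO libraries, and all of them lay above both WT libraries. Klf4 rose 1.88-fold (log2 fold change 0.91 ± 0.13 SE, 95% interval 0.61 to 1.20, edgeR adjusted p = 0.00158), and the call held in all 15 alternative settings. Klf4 is also made outside epithelia and can be induced quickly by stress. In the same libraries 6 of 13 immediate early genes rose, beside 9.64% of all tested genes, with a median log2 fold change of 0.23. These genes respond within minutes to stimuli and to tissue handling. Their summed level was 678 to 784 CPM in Ncstn KO and 590 to 611 CPM in WT libraries. Dusp1, which encodes a MAP kinase phosphatase, was at 52.0, 56.4 and 28.3 CPM in Ncstn KO libraries and at 15.3 and 18.3 CPM in WT libraries (edgeR adjusted p = 0.00419). Jun and Ier3 also rose (log2 fold changes 0.69 and 0.71), whereas Fos and Egr1, chosen after their values were seen, were not called (log2 fold changes 0.23 and -0.91, edgeR adjusted p = 0.282 and 0.0519). Egr1 was called lower in 11 of the 15 alternative settings, with log2 fold changes of -1.37 to -0.24 over all 15. Of these genes 2 rose without WT 1 and 3 without WT 2, and under pan-epithelial scaling, in which 10 epithelial genes set the library size, 2 rose and 2 fell. Their part in the Klf4 result was not tested.

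Klf5, on chromosome 14 from 99298691 to 99315036, was the only member with a negative log2 fold change. It was at 76.3, 76.8 and 101 CPM in Ncstn KO libraries and at 111 and 93.1 CPM in WT libraries. KO 3 lay between the WT libraries, so the groups overlapped. Klf5 did not pass the test (log2 fold change -0.27 ± 0.14 SE, 95% interval -0.58 to 0.03, edgeR adjusted p = 0.181). Without KO 3 it passed as lower (log2 fold change -0.43, edgeR adjusted p = 0.0141). There were 1.65, 2.17 and 1.27 Klf4 reads for each Klf5 read in Ncstn KO libraries and 0.693 and 0.778 in WT libraries. These are raw reads, and the annotated exons of Klf5 are longer (5201 against 3049 bases). Per kb of exon, Klf4 lay above Klf5 in every library. In WT 1 the levels were 25.2 for Klf4 against 21.3 CPM per kb for Klf5, and in WT 2 they were 23.8 against 17.9. The log2 ratio was higher by 1.17 in Ncstn KO mice, the largest difference of the 5 ratios (exact permutation p = 0.1, the smallest possible, adjusted p = 0.167).

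Ovol1 and Ovol2 encode repressors of mesenchymal and progenitor genes. Ovol1, on chromosome 19 from 5549136 to 5560646, was at 17.2, 18.0 and 21.6 CPM in Ncstn KO libraries and at 14.7 and 15.3 CPM in WT libraries. The groups did not overlap, yet Ovol1 did not pass after adjustment (log2 fold change 0.33 ± 0.14 SE, unadjusted p = 0.0409, edgeR adjusted p = 0.126). Ovol2, on chromosome 2 from 144305175 to 144332146, had 107, 96 and 71 counts in Ncstn KO libraries and 89 and 57 counts in WT libraries, the fewest of the 9 genes. Its levels of 4.03, 5.77 and 5.53 CPM in Ncstn KO libraries and 4.65 and 3.97 CPM in WT libraries overlapped. Ovol2 did not pass (log2 fold change 0.22 ± 0.24 SE, edgeR adjusted p = 0.537), and its 95% interval of -0.30 to 0.75 includes changes as large as those called for Elf3 and Grhl1. The Ovol1 to Ovol2 log2 ratio differed by 0.10 (exact permutation p = 0.6), and the groups overlapped. Transcripts on the opposite strand overlap 19.78% of the exon bases of Ovol1 (the pseudogene Gm31166) and 16.99% of those of Ovol2 (1700108N11Rik), so part of their counts is uncertain.

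**Figure D2:**
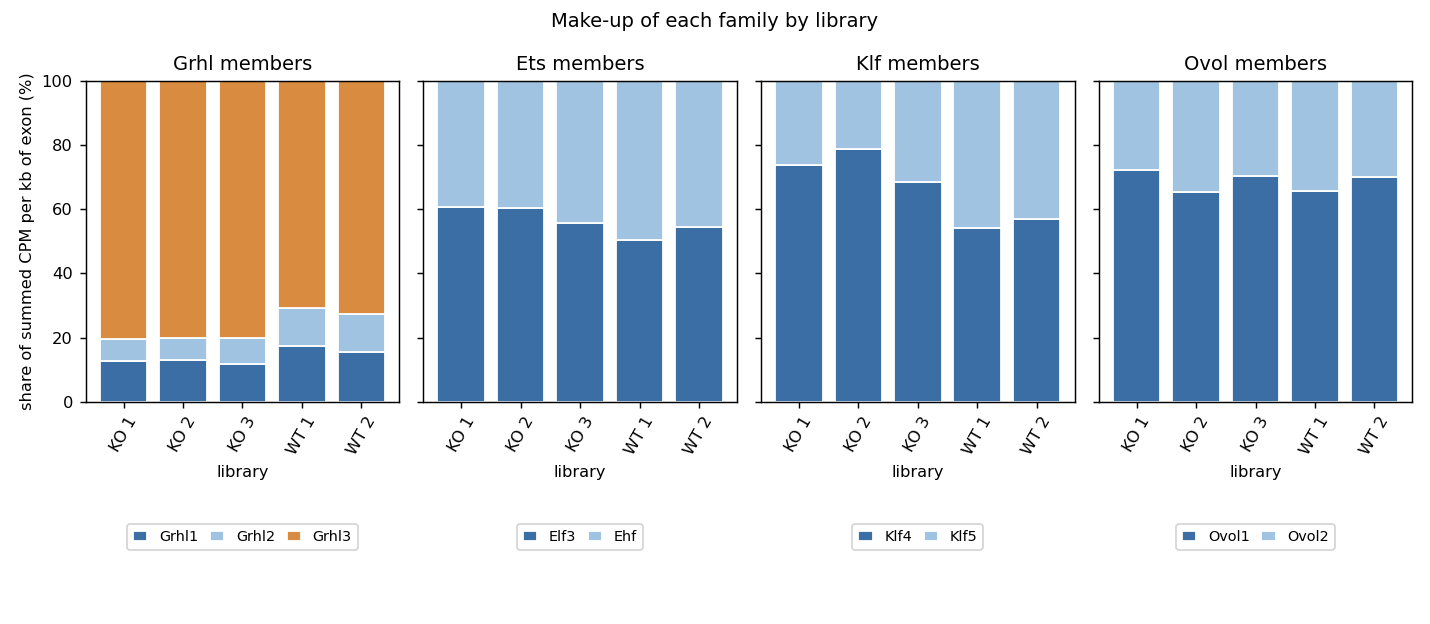
Share in percent of the summed CPM per kb of exon that each gene takes within its family, by library, with the Ncstn KO libraries left of the WT libraries. Grhl3 takes 80.1% to 80.6% in Ncstn KO and 70.9% to 72.8% in WT libraries, and Klf4 takes 68.4% to 78.7% in Ncstn KO and 54.2% to 57.0% in WT libraries.

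Levels between genes can be compared only per length. In Ncstn KO mice Grhl3 had the highest level, at 129.6 ± 7.85 CPM per kb of exon, followed by Elf3 at 92.7 ± 7.55, Ehf at 64.2 ± 2.38 and Klf4 at 45.96 ± 7.52 (SD, n = 3). Each of these genes was separate from the next in all 3 libraries. In WT mice Elf3 was at 63.2 ± 2.66, Grhl3 at 60.7 ± 0.885 and Ehf at 57.4 ± 3.85 CPM per kb of exon (SD, n = 2). The range of Grhl3 overlapped those of both others, while Elf3 stood above Ehf in both WT libraries, and Klf4 followed at 24.5 ± 0.999. Klf5 and Grhl1 came next in both genotypes. Grhl1 and Klf5 overlapped in Ncstn KO mice, at 20.3 ± 2.24 and 16.3 ± 2.67, and Klf5 stood above Grhl1 in both WT libraries, at means of 19.6 ± 2.41 for Klf5 and 13.9 ± 1.50 for Grhl1. Grhl2 was at 11.5 ± 0.658 CPM per kb of exon in Ncstn KO and 9.94 ± 0.423 in WT mice. Ovol1 was at 5.44 ± 0.673 in Ncstn KO and 4.31 ± 0.123 in WT mice. Ovol2, at 2.42 ± 0.447 in Ncstn KO and 2.04 ± 0.226 in WT mice, was the lowest in both. Exon length was taken over all annotated transcripts, so a gene with long unused exons is understated.

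Centred on each gene's own mean over the 5 libraries, the log2 CPM profiles of Grhl2 and Ehf were the closest pair of members (Euclidean distance 0.07), followed by Ovol1 and Grhl2 (0.21) and Grhl1 and Elf3 (0.23). Grhl3 was closest to Klf4 (0.35) and farthest from Klf5 (1.57). Outside the 9 genes, the profiles nearest to Grhl3 were those of Itpripl1, Smoc1 and Igfbp3, at distances of 0.10, 0.13 and 0.13. Igfbp3, which encodes a secreted binding protein for insulin-like growth factors, was at 136, 140 and 138 CPM in Ncstn KO libraries and 65.3 and 65.0 CPM in WT libraries. Klf4 lay nearest to Mcub, Apol7a and Adamts1, Elf3 to Mafk, Ccdc120 and Hcar2, and Grhl1 to Zfp36, Ezh2 and Rbm12. These distances describe 5 libraries of these 2 genotypes and no more.

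Because pan-epithelial genes were also more abundant in Ncstn KO libraries, the members were set against them. Among all tested genes 9.64% rose. All 10 pan-epithelial genes had positive log2 fold changes (median 0.36), and 3 of them rose. That number was 1 without KO 1, KO 2 or WT 1 and 6 without KO 3. Per 10000 counts of these 10 genes together, Grhl3 had 377, 382 and 376 counts in Ncstn KO libraries and 242 and 201 in WT libraries. On the same scale Klf4 had 128, 169 and 143 counts in Ncstn KO libraries and 108 and 86.8 in WT libraries. Elf3 had 217, 220 and 208 counts in Ncstn KO libraries and 192 and 173 in WT libraries, whereas the Grhl1 groups overlapped.

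With the summed counts of the pan-epithelial genes as library size, 2 members were called higher and 1 lower. Keratin genes held most of this sum in every library. Cdh1 and Epcam, which belong to it, are also among the grainyhead-linked genes given below. Grhl3 rose (log2 fold change 0.77 ± 0.13 SE, edgeR adjusted p = 0.00361) and Klf4 rose (0.59, edgeR adjusted p = 0.0254), while Elf3 (0.24, edgeR adjusted p = 0.167) and Grhl1 (0.22, edgeR adjusted p = 0.300) did not pass. Klf5 fell by 0.59 on the log2 scale (edgeR adjusted p = 0.0483). Its groups still overlapped per 10000 pan-epithelial counts, with KO 3 at 112 and WT 2 at 111. Grhl2, Ehf and Ovol2 changed sign without passing, to -0.11, -0.16 and -0.10. This scaling moved the median of all genes tested to -0.31, and 363 genes were then called higher and 3620 lower, against 1424 higher and 1483 lower with TMM scaling. Elf3 and Grhl1 lay above and Klf5 below that median, as with TMM scaling. A change of library size moves all genes by about the same amount, so this position does not test those calls again.

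**Figure D3:**
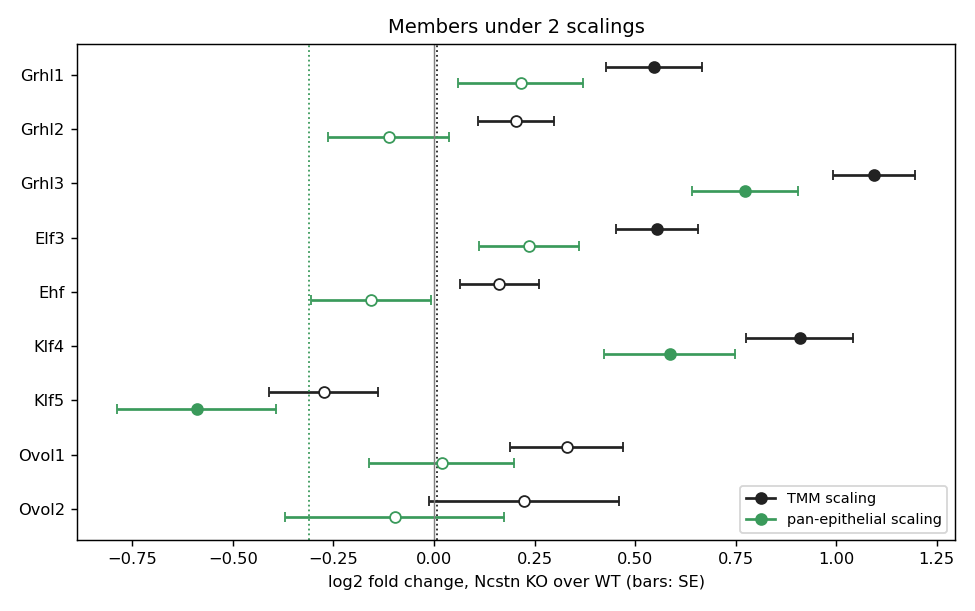
Log2 fold change, Ncstn KO over WT, of each barrier factor with its SE, under TMM scaling (black) and pan-epithelial scaling (green). Filled points passed the adjusted p threshold of 0.05, and dotted lines mark the median of all tested genes. Grhl3 and Klf4 are filled under both scalings, Elf3 and Grhl1 under TMM alone and Klf5 under pan-epithelial scaling alone.

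The other genes of the same families gave calls in both directions. Of 24 relatives listed, 21 were tested, and their median log2 fold change was 0.07. Beside 9.64% of all tested genes higher and 10.0% lower, 4 relatives rose, 1 fell and 16 did not pass. Those that rose were Klf13 (log2 fold change 0.75, edgeR adjusted p = 0.00191), Klf6 (0.61, edgeR adjusted p = 0.00218), Klf16 (0.57, edgeR adjusted p = 0.0180) and Klf9 (0.56, edgeR adjusted p = 0.0453). Klf6, an early-response gene, was at 120, 106 and 116 CPM in Ncstn KO libraries and at 75.1 and 73.7 CPM in WT libraries. Klf12 fell by 1.32 on the log2 scale (edgeR adjusted p = 0.0221), at 1.20, 1.38 and 2.02 CPM in Ncstn KO libraries and 4.60 and 2.79 CPM in WT libraries. Under pan-epithelial scaling 0 relatives were called higher and 4 lower. Without KO 2, WT 1 or WT 2, 2 relatives were called higher, and those called lower numbered 0 without KO 1 or WT 1 and 2 without KO 3.

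Of 12 other regulators of epithelial identity, 4 rose, 2 fell and 6 did not pass, beside 9.64% of all tested genes higher and 10.0% lower. Hopx, which encodes a small homeodomain-like cofactor, rose (log2 fold change 0.58, edgeR adjusted p = 0.00923). The splicing regulator gene Esrp1, an epithelial gene under Grhl2 control in other tissues, also rose (log2 fold change 0.41, edgeR adjusted p = 0.0183). Esrp2 and Zfp750 rose by 0.32 and 0.43. Prdm1, which encodes the repressor Blimp1, fell by 1.00 and the enhancer-binding factor gene Cebpa fell by 0.58 on the log2 scale (edgeR adjusted p = 0.00549 and 0.0150). Under pan-epithelial scaling 0 of these regulators were higher and 3 lower. Those called higher numbered 1 without KO 1, 0 without WT 1 and 1 without WT 2, and those called lower 0 without WT 1 and 1 without WT 2.

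Mesenchymal transcription factor genes, among which Zeb1 and Zeb2 are known to be restrained by Ovol and Grhl2 in other epithelia, had a median log2 fold change of -0.33 over 7 tested. Zeb2 fell to 29.2, 29.8 and 27.1 CPM in Ncstn KO libraries, against 49.9 and 45.9 CPM in WT libraries (edgeR adjusted p = 0.00130), and Tcf4 fell by 0.73 on the log2 scale (edgeR adjusted p = 0.00178). No call was made for 5, among them Zeb1 (log2 fold change -0.33, edgeR adjusted p = 0.0781). Of these 5, Snai2 and Twist2 had positive log2 fold changes (0.33 and 0.14, edgeR adjusted p = 0.127 and 0.661), and every Ncstn KO library lay above both WT libraries for Snai2. Without KO 3 and under pan-epithelial scaling 4 of the 7 were called lower. Fibroblast markers fell in 9 of 10 cases in the same libraries. That number was 6 without KO 1 and lower still when some other single library was left out. With some single library left out, a fibroblast marker was also called higher. The fibroblast marker Lum was at 64.7, 54.9 and 50.4 CPM in Ncstn KO libraries and 171 and 172 CPM in WT libraries. Of 8 endothelial markers 3 fell and 5 did not pass, and of 7 leukocyte markers tested 1 fell and 6 did not pass. Smooth muscle markers did not lean lower: of 8 tested, 1 fell and 7 did not pass. Their log2 fold changes were positive for 4 and negative for 4, with a median of 0.04. Of all tested genes 10.0% fell. The part of these cell types in the Zeb2 and Tcf4 values was not tested.

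Genes linked to grainyhead factors in other work were mostly without a call. Of 10 listed, 8 were tested and 2 rose, Upk2 and Esrp1, beside 9.64% of all tested genes. Cdh1, Cldn4, Rab25, Epcam, Tgm1 and Arhgef19 did not pass. Log2 fold changes were positive for 7 of the 8 and negative for 1, Arhgef19. Upk2, the uroplakin gene that Grhl3 is known to bind in mouse bladder, was at 1725, 1601 and 1552 CPM in Ncstn KO libraries and 856 and 924 CPM in WT libraries. It rose with TMM scaling (log2 fold change 0.87, edgeR adjusted p = 0.00119) and with pan-epithelial scaling (0.56, edgeR adjusted p = 0.0109). Upk2 is also 1 of the 6 umbrella cell markers, of which 5 rose, and 1 was called higher under pan-epithelial scaling. Without KO 1 or WT 2, 3 of these markers were called higher, and 2 without KO 2 and 1 without WT 1. Rab25, a vesicle trafficking gene under Grhl2 control in kidney epithelium, was not called (log2 fold change 0.28, edgeR adjusted p = 0.0938). Of the 8 grainyhead-linked genes tested, 1 was called higher without KO 1, WT 1 or WT 2, and 1 higher and 1 lower under pan-epithelial scaling. Of 12 genes for enzymes of the skin barrier, 9 were tested and 3 rose. These were St14, the protease matriptase (log2 fold change 0.36, edgeR adjusted p = 0.0202), and Cers3 and Elovl1, enzymes of very long chain lipids (0.49 and 0.35, edgeR adjusted p = 0.0205 and 0.0489). None of the 3 was called under pan-epithelial scaling, without KO 1 or without WT 1, and 1 gene of the list was called higher without KO 2 and without WT 2. Elovl1, closest to the threshold, lost its call in 9 of the 15 alternative settings (edgeR adjusted p = 0.00225 to 0.875 over all 15).

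**Figure D4:**
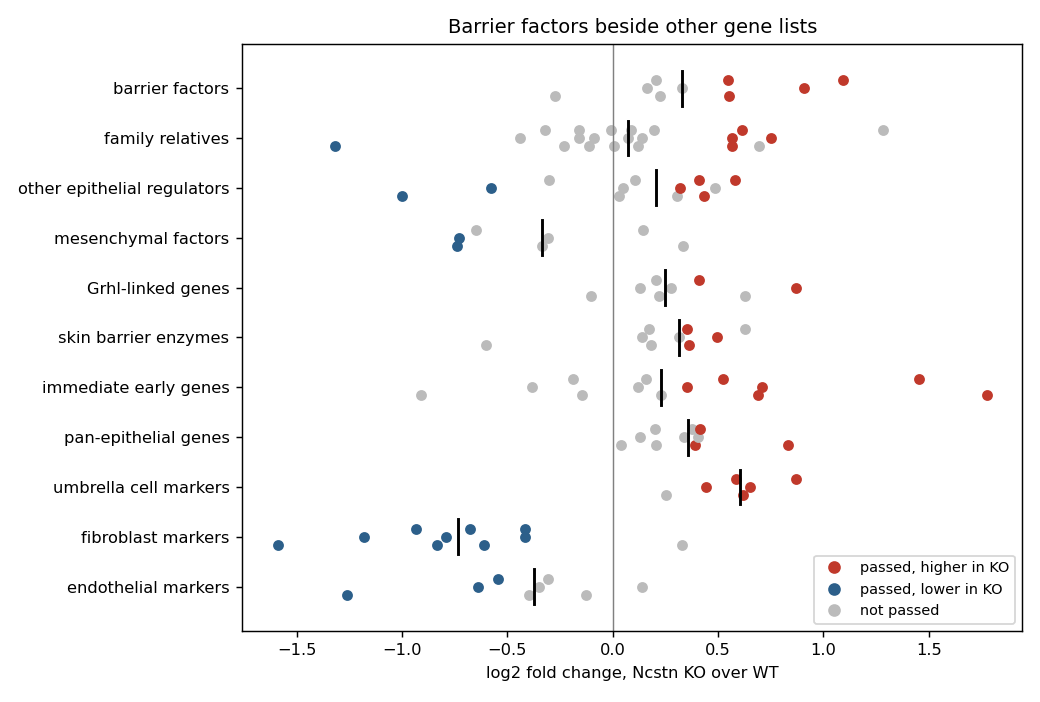
Log2 fold change, Ncstn KO over WT, of every tested gene in the list of barrier factors and in 10 other lists. Colours mark genes that passed the edgeR test as higher or lower in Ncstn KO, grey points did not pass, and black lines are list medians. The barrier factors have a median of 0.33, the umbrella cell markers 0.60 and the fibroblast markers -0.73.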

How the data were processed

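The deposited values were raw gene counts, 1 file per library. Build mm10 and the tools HTSeq 0.11.1, HISAT2 2.1.0 and DESeq2 are named in the submitters' processing notes. Neither the annotation used for counting nor its strand setting is stated there. The 5 summary entries of the counting program were left out, after which genes held 49.3% to 60.6% of tallied reads. The filter filterByExpr, at a minimum count of 10 and a minimum total of 15, kept 14779 of 24970 genes, which were scaled with TMM and tested with edgeR 4.0.16 (R 4.3.3, quasi-likelihood, Benjamini-Hochberg). DESeq2 1.42.0 and limma-voom (limma 3.58.1) were alternatives. SE is the log2 fold change divided by the root of the F statistic. Positions and exon lengths come from GENCODE vM21 (GRCm38), matched by symbol, and promoters from RefSeq (GRCm38.p6), which held 5 of the 9 genes. The members and gene lists were chosen with earlier results of these data known. All members were named, up to 4 genes with the smallest p per other list, and 3 nearest profiles per called member, and Fos, Egr1, Snai2, Twist2, Klf9, Esrp2, Zfp750 and genes listed as not passing were named after their values were seen. Chi-square per degree of freedom between libraries of 1 genotype was 9.26 to 36.3, above the 1 of pure counting error, so no library repeated another. Each library was taken as 1 mouse, as the design text describes. The values of 1 gene in the pan-epithelial list are not reported here.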

Additional observations from a re-analysis of the deposited data

How the results depend on the processing

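The 15 alternatives were other scalings, looser and stricter filters, leaving out ribosomal and nuclear RNA entries, a robust fit, DESeq2, limma-voom, a replicate block and leaving out each library. Over the 9 members they gave 135 values, of which 125 kept direction and side of the threshold, 4 lost a call, 3 gained one (all Klf5, lower) and 3 changed sign. The members called higher, 4 with all libraries, numbered 2 under pan-epithelial scaling and 3 to 4 when 1 library was left out. The members called lower, 0 with all libraries, numbered 1 under pan-epithelial scaling and 0 to 1 when 1 library was left out. Under pan-epithelial scaling the log2 fold changes of Grhl2 (-0.11), Ehf (-0.16), Ovol2 (-0.10), Rab25 (-0.032), Epcam (-0.10) and Itgam (-0.10) changed sign, which follows from its construction, and 9.11% of calls were higher in Ncstn KO, against 49.0% with TMM. All genes called, 2907 with all libraries, numbered 715 to 3989 when 1 library was left out, with 1901 when KO 2, 1747 when KO 1, 1429 when WT 2 and 715 when WT 1 was the one left out. With a replicate block 4637 genes were called, and the members called higher stayed at 4. Klf5 was the 1 member called lower (log2 fold change -0.41, edgeR adjusted p = 0.00445). KO 3 has no WT library of the same number, so this fit compares the same libraries as the setting without KO 3. The log2 fold changes there were near, at -0.43 for Klf5 and 1.13 against 1.14 for Grhl3. The 2 settings are therefore not separate checks. The numbers were not shown to pair the mice: deviations of same-numbered libraries correlated across genes at -0.05 and 0.04. Leaving out 1 library gave log2 ratio differences of 0.83 to 0.98 for Grhl3 to Grhl2 and -0.045 to 0.24 for Ovol1 to Ovol2. The cause of these shifts was not tested. Counting error limits Ovol2, with 57 to 107 counts, and no library group was large enough for an outlier test.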

Other observations

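Several barrier genes of skin were at or near 0 in this tissue. Dsg1a and Dsg1b, desmosomal cadherin genes that Grhl1 controls in mouse skin, had 0 counts in all 5 libraries. Abca12, Alox12b and Tgm3, genes of the cornified layer of skin, had 0 to 3 counts per library and were not tested. The relatives Klf14, Klf17 and Ovol3 had 0 to 3 counts per library and were not tested either.

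Spdef, an Ets relative of Elf3 and Ehf, had 28, 7 and 15 counts in Ncstn KO libraries and 7 and 5 counts in WT libraries. Its log2 fold change of 1.29 ± 0.57 (SE) did not pass (edgeR adjusted p = 0.136). Spdef, Klf14, Klf17 and Ovol3 were named after their values were seen.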
